A study of Mus musculus with 8 samples.

Results

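The genes described are 33 genes of glucose uptake, glycolysis, lactate handling and the response to low oxygen, taken from a fixed list by symbol, out of 49315 genes in the count files. All 33 were matched by Ensembl identifier to GENCODE mouse symbols, and all 33 had enough reads to be tested. Of these, 21 belong to glucose uptake, glycolysis, pyruvate and lactate, and 12 to the hypoxia response. RNA was sequenced from isolated back skin epidermis at an age of 22 months, with 3 libraries from wild type mice (WT) and 5 from mice labelled Tgfa knockout (Tgfa KO). The product of Tgfa, transforming growth factor alpha, is a ligand for the epidermal growth factor receptor, and no group received a treatment other than ageing. The labels give keratinocytes as the cell type. How the knockout allele was made, in which cells it acts, the strain, and whether each library came from a separate mouse were not stated in the labels, and the p-values therefore reflect the spread among libraries, which may be technical. Library names end in br in all 3 WT libraries and in KO 1 and KO 2, and in bl in KO 3, KO 4 and KO 5. What the endings stand for is not stated either.

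Glycolysis splits glucose into pyruvate in the cytosol. Slc2a1 brings glucose in, hexokinase traps it, phosphofructokinase commits it to breakdown, and pyruvate either enters mitochondria or is turned into lactate, which leaves through the transporters Slc16a1 and Slc16a3. When oxygen is low, the prolyl hydroxylases Egln1 and Egln3 no longer mark the transcription factor Hif1a for destruction, and Hif1a with its partner Arnt switches on many of these same genes. Epidermis has no blood vessels of its own and normally runs largely on glycolysis.

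Hif1a and Arnt bind a short core sequence, ACGTG or GCGTG, within the hypoxia response element. Promoters from RefSeq (build GRCm38.p6) were found for 32 of the 33 genes. The 250 bases before each annotated start were searched on both strands, so that CACGT and CACGC count as well and overlapping matches were merged. A gene with several starts counted if any start had a match, among members and all genes alike. Vegfa counted through a stretch with 218 of 250 bases in its own exons and had no match at its other start. Hk1 also had no match at another start. ACGTG was present in 21 of the 32 (65.6%), against 18.5% of 27018 genes in the same table. ACGTG or GCGTG was present in 30 (93.8%), against 41.5% of genes, and 3 or more separate stretches in 8 of them, against 5.27% of genes. A match describes the letters and does not show binding, and many of these genes are textbook targets of the factor, so the share describes the list. Stretches are printed for 5 genes whose values are described in detail, reading 5′ to 3′ on the gene's own strand, with each match in capitals.
Slc16a1: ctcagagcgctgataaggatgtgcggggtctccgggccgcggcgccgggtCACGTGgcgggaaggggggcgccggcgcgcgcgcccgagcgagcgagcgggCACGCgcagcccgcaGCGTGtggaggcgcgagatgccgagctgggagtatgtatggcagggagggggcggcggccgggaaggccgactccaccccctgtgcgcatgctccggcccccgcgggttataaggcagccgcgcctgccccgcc
Hk2: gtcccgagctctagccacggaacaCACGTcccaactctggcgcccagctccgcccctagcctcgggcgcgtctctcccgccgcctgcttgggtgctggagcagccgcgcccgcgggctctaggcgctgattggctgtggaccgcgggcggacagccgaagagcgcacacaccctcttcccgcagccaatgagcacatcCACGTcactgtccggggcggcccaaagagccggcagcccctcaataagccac
Egln3: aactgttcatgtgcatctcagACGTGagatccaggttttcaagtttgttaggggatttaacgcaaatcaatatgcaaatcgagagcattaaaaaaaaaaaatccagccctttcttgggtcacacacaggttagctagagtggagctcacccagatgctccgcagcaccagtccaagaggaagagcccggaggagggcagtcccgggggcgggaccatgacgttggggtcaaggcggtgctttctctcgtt
Ddit4: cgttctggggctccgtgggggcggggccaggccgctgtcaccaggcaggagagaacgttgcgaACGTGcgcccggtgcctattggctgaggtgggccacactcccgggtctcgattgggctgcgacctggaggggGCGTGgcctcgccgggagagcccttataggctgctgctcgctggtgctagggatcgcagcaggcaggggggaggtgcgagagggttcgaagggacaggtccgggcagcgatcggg
Adm: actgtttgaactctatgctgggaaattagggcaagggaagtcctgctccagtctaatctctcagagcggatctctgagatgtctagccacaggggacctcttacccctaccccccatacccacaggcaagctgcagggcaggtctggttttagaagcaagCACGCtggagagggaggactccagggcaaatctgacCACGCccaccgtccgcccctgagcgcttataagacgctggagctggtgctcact

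These stretches lie at chr3:104638414-104638663 on the plus strand for Slc16a1, chr6:82774455-82774704 on the minus strand for Hk2, chr12:54203875-54204124 on the minus strand for Egln3, chr10:59951771-59952020 on the minus strand for Ddit4 and chr7:110627407-110627656 on the plus strand for Adm. None of them overlaps an annotated exon of its own gene, and exons of other genes were not searched. Slc16a1 has 3 matched stretches, the first of them the palindrome CACGTG, which reads the same on both strands and is also the E-box bound by Myc. Hk2, Ddit4 and Adm have 2 each and Egln3 has 1. Adm holds only the GCGTG form, read as CACGC.

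Total counts ran from 5313552 in KO 2 to 18292303 in WT 1. As a share of library totals, Tgfa was 90.3, 84.8 and 110 CPM (counts scaled to the same total in every library) in WT 1 to WT 3, 103 in the library labelled KO 1, and 37.3, 45.1, 38.9 and 72.9 in KO 2 to KO 5. The level in the library labelled KO 1 lay inside the WT range, which goes against its label. The scaling used for the members below multiplies library totals by 0.780 for this library and by 0.978 to 0.9997 in WT. With that scaling its Tgfa level would lie above every WT library. The allele is not described, so the RNA level does not settle the genotype. KO 5 lay below WT but closer to it than KO 2, KO 3 and KO 4. KO 2 held reads of genes that skin does not normally use: olfactory and vomeronasal receptor genes took 3564 CPM there, 588 in WT 3 and 254 in WT 2, and between 33.2 and 62.9 in each remaining library. The nuclear RNA Malat1 made up 6.61% of counts in WT 3 and 4.88% in the library labelled KO 1, against 1.34% to 1.84% elsewhere. Keratinocyte markers summed to 13223 to 27127 CPM in WT and 13016 to 31403 in KO, so the labelled cell type was present in every library. Where leaving out a library reversed the log2 fold change of a member between KO and WT, its range is given in the last section. For changes in size alone, only some values are given.

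No member passed an adjusted p of 0.05 between KO and WT in edgeR's quasi-likelihood test across 19239 genes, with 0 of 33 higher and 0 lower. Over all genes 0.0052% were called higher and 0% lower. Without adjustment, 5 members had p under 0.05, all higher in KO (Slc16a1, Ankrd37, Egln1, Pfkl and Hk2), and 0 lower, against 4.44% and 1.85% of all genes. DESeq2 also called 0 members, where it called 0.226% of all genes higher and 0.093% lower, and limma voom without library weights called 0 members and 0% of all genes. On the log2 scale, KO minus WT, the value was positive for 28 members and negative for 5, with a median of 0.49. For all genes 61.9% were positive and the median was 0.16. The median was 0.49 for the 21 glycolysis genes (20 positive) and 0.42 for the 12 hypoxia genes (8 positive), and the median of all 33 was 0.38 with upper quartile scaling and 0.46 with library totals alone. These counts depended on 2 libraries. Without WT 2, 21 members were positive and 12 negative, with medians of 0.10 for all 33, 0.14 for glycolysis and -0.02 for hypoxia genes, where 46.3% of all genes were positive with a median of -0.06. Without the library labelled KO 1, 22 were positive and 11 negative, with medians of 0.21, 0.25 and -0.19, where 60.1% of all genes were positive with a median of 0.17. The median of the 33 ran from 0.47 to 0.61 when any other library was left out, and was 0.50 without KO 5. Values of KO and WT libraries did not overlap for 2 members, Slc16a1 and Ankrd37, both higher in KO, and for 0 members lower in KO, against 3.24% and 1.73% of all genes.

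The spread within the KO group was wide for most members. Levels are in CPM, here counts divided by a library size scaled with TMM factors, a normalization that lines up the bulk of genes between libraries. The library labelled KO 1 was the highest of all 8 in 26 of 33 members, against 17.2% of all genes, and KO 2 the lowest in 19, against 24.4% of all genes. KO 2 lay below the lowest WT library in 20 members (30.9% of all genes did). Part of the first count depends on the scaling. With library totals alone, the library labelled KO 1 was highest in 14 members and KO 2 lowest in 15. The shares of all genes were computed with TMM factors only, so these 2 counts have no share of all genes beside them. Among KO 3, KO 4 and KO 5, the libraries ending in bl, every value lay above every WT value in 14 members (17.3% of all genes did) and below in 3 (12.9% of all genes did). The 14 were Pfkl, Pfkm, Tpi1, Gapdh, Pgk1, Pgam1, Eno1, Pkm, Ldha, Pdk1, Slc16a1, Egln1, Egln3 and Ankrd37, and the 3 were Pfkfb3, Ndrg1 and Adm.

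**Figure D1:**
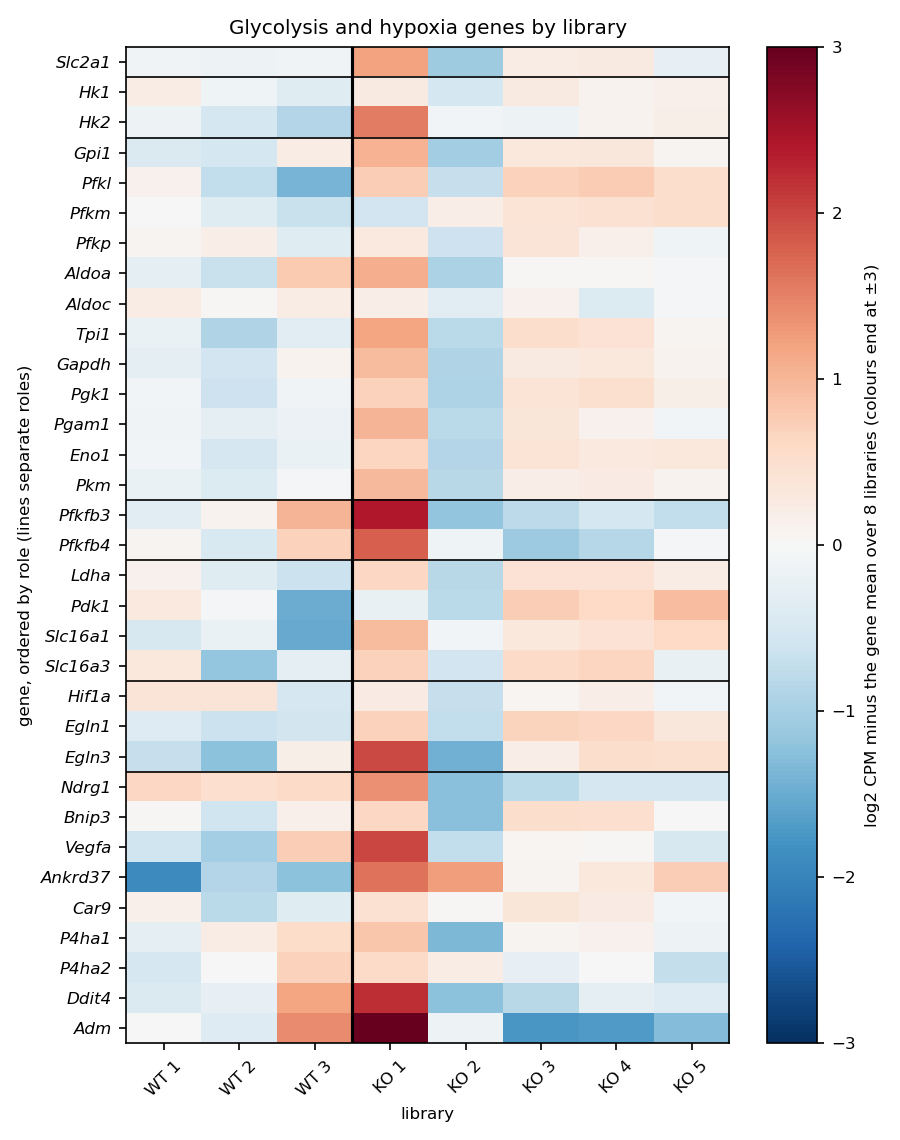
Heat map of the 33 genes (vertical axis, ordered by role) in the 8 libraries (horizontal axis). Colour is log2 CPM minus the gene's mean over the 8 libraries, red for higher and blue for lower, and the thick line separates WT from KO. The column of the library labelled KO 1 is reddest in 26 rows and that of KO 2 bluest in 19.

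Slc2a1 (chromosome 4, 119108711 to 119137983, GRCm38), the main glucose carrier of epidermis, was among the most abundant members. Its level was 252, 246 and 253 CPM in WT 1 to 3, 629 in the library labelled KO 1, and 129.6, 319, 328 and 229.5 in KO 2 to KO 5. The 3 WT libraries lay within 7 CPM of each other while the KO libraries fell on both sides of them. KO minus WT came to 0.39 on the log2 scale (SE 0.42, edgeR adjusted p = 0.932). It was 0.0094 without the library labelled KO 1, 0.56 without KO 2 and 0.15 without WT 2.

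Hexokinase traps glucose by phosphorylation, and keratinocytes use the steady form Hk1 and the inducible form Hk2. Hk1 was 124, 96.1 and 81.2 CPM among the WT libraries and 126, 73.3, 126, 113 and 117 among the KO libraries, a log2 difference of 0.15 (SE 0.24, adjusted p = 0.936 by edgeR). Hk2 (chromosome 6, 82725025 to 82774454) was 58.7, 45.1 and 35.4 CPM in WT, 190.1 in the library labelled KO 1, and 61.8, 58.3, 69.7 and 73.3 in KO 2 to KO 5. Only KO 3 fell below the highest WT library, and by less than 1 CPM. Over 8135 autosomal genes of at least 500 bases without reads in the other 5 libraries, KO 2, WT 2 and WT 3 held 5.88, 1.03 and 2.20 counts per kilobase. At that rate the length of Hk2 would collect 35.1 of its 372 counts in KO 2. In WT 2 and WT 3 it would collect 6.18 of 684 and 13.1 of 456. The part of such reads in the place of KO 2 above WT was not tested. The means were 46.4 ± 11.7 CPM for WT (SD, n = 3) and 90.6 ± 55.9 for KO (n = 5). The log2 fold change of Hk2 was 0.97 (SE 0.42, 95% limits 0.03 and 1.91, edgeR unadjusted p = 0.0441, adjusted p = 0.763), and 0.52 without the library labelled KO 1. Per length, Hk2 made up 40.4%, 40.1% and 38.4% of the transcripts of both genes in WT, 68.3% in the library labelled KO 1, and 54.7%, 39.8%, 46.8% and 47.3% in KO 2 to KO 5. Its share in KO 3 lay within the WT range and the other 4 KO shares lay above it.

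Phosphofructokinase, the committed step, has 3 genes, named for platelets (Pfkp), liver (Pfkl) and muscle (Pfkm). Pfkl (chromosome 10, 77986947 to 78010083) was 39.5, 21.4 and 13.6 CPM in WT, 60.3 in the library labelled KO 1, and 22.1, 57.7, 60.5 and 51.7 in KO 2 to KO 5. All KO libraries but KO 2 lay above the highest WT library. Its log2 fold change was 1.03 (SE 0.41, 95% limits 0.12 and 1.93, edgeR unadjusted p = 0.0302, adjusted p = 0.703). Pfkm was 12.8, 9.96 and 8.07 CPM among the WT libraries and 8.68, 14.8, 17.2, 17.5 and 18.6 among the KO libraries, with the library labelled KO 1 inside the WT range and the other 4 KO libraries above it. At the rate seen over the 8135 genes without reads in 5 libraries, the length of Pfkm would collect 17.4 of its 89 counts in KO 2. The part of such reads in the place of KO 2 above WT was not tested. The log2 fold change of Pfkm was 0.59 (SE 0.30, edgeR adjusted p = 0.832). Pfkp was 311, 334 and 226 CPM among the WT libraries and 356, 189, 381, 325 and 269 among the KO libraries, a log2 difference of 0.07 (SE 0.27, adjusted p = 0.970 by edgeR). The balance between the isozymes can be read from the same libraries. Per length, Pfkp supplied 71.3%, 81.2% and 80.5% of phosphofructokinase transcripts in WT and 69.5%, 66.7%, 68.1%, 63.8% and 61.3% in KO. The highest KO share lay below the lowest WT share. What reads at the rate of the 8135 genes add to these shares, in KO 2 above all, was not tested. The means were 77.7% ± 5.54 for WT (SD, n = 3) and 65.9% ± 3.31 for KO (n = 5). This ratio was singled out after its values were seen, among 9 isozyme shares computed, and carries no test.

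**Figure D2:**
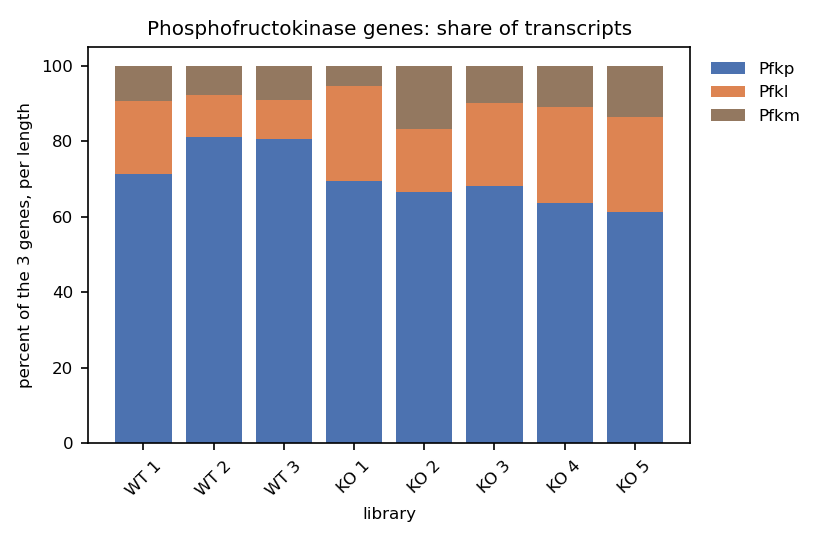
Stacked bars of the share of phosphofructokinase transcripts, per length, from Pfkp (blue), Pfkl (orange) and Pfkm (brown) in each of the 8 libraries. The vertical axis is percent of the 3 genes and starts at 0. Pfkp takes 71.3% to 81.2% in WT and 61.3% to 69.5% in KO.

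Of the other enzymes of the main path, Tpi1 had the largest log2 fold change. Tpi1 (chromosome 6, 124810586 to 124814296), which interconverts the products of aldolase, was 113, 69.8 and 105 CPM in WT, 293 in the library labelled KO 1, and 73.8, 186, 176 and 138 in KO 2 to KO 5. KO 2 lay inside the WT range and the other KO libraries above it. For Tpi1 the log2 fold change was 0.85 (SE 0.39, 95% limits -0.03 and 1.73, edgeR unadjusted p = 0.056, adjusted p = 0.811), 0.58 without the library labelled KO 1 and 0.45 without WT 2. Gapdh, the dehydrogenase that starts the energy-yielding steps and is often used as a reference gene, was 352, 283 and 456 CPM in WT, 822 in the library labelled KO 1, and 229, 508, 532 and 459 in KO 2 to KO 5. Its highest level was 3.59 times its lowest, with KO 2 below and the other KO libraries above WT. Gpi1, the isomerase after hexokinase, was 173, 162 and 272 CPM among the WT libraries and 479, 114, 290, 295 and 246 among the KO libraries. Pgk1, the first step that makes ATP, was 95.9, 66.1 and 95.3 CPM among the WT libraries and 164, 53.7, 135, 143 and 115 among the KO libraries. In both genes KO 2 was the lowest library, and in Pgk1 the other 4 KO libraries lay above WT.

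Eno1, which makes phosphoenolpyruvate, was 247, 184 and 229 CPM among the WT libraries and 407, 143, 349, 322 and 327 among the KO libraries. Pkm, which makes pyruvate, was 323, 279 and 355 CPM among the WT libraries and 727, 208, 424, 444 and 399.7 among the KO libraries. Pgam1, the mutase before enolase, was 36.5, 32.4 and 35.1 CPM among the WT libraries and 79.8, 22.4, 50.5, 43.1 and 37.1 among the KO libraries. In all 3 genes KO 2 was the lowest library and the other 4 KO libraries lay above every WT library. The log2 fold changes of Gpi1, Gapdh, Pgk1, Pgam1, Eno1 and Pkm lay between 0.43 and 0.51, with edgeR adjusted p of 0.881 to 0.912. The same 6 values lay between 0.15 and 0.38 without the library labelled KO 1, between 0.57 and 0.66 without KO 2 and between 0.08 and 0.16 without WT 2. Aldoa, the main aldolase, stood apart from these, at 322, 243 and 668 CPM among the WT libraries and 828, 199, 395, 394 and 370.3 among the KO libraries. WT 3 was above all KO libraries but the one labelled KO 1, and the log2 fold change was 0.09 (SE 0.46, edgeR adjusted p = 0.977), 0.63 without WT 3, -0.28 without the library labelled KO 1 and -0.47 without WT 2. Aldoc, a minor aldolase, was the 1 glycolysis member with a negative value, from 13.8 to 15.9 CPM in WT and 10.2 to 15.5 in KO (log2 fold change -0.22). The 12 core genes together took 0.200%, 0.170% and 0.246% of all counts in WT and 0.331%, 0.145%, 0.292%, 0.297% and 0.254% in KO.

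Compared per length, in TPM (counts divided by the deposited gene lengths and scaled to the same total in every library), the members spanned a wide range. In WT, Aldoa was the highest at 279 ± 138 TPM (SD, n = 3), followed by Gapdh at 227 ± 49.6, Slc2a1 at 185 ± 17.0 and Pkm at 165 ± 22.7. These neighbours did not differ beyond their spread. Hif1a reached 133 ± 49.0, and Ankrd37 was the lowest at 0.996 ± 0.283. Of the hexokinases, Hk1 was 30.8 ± 9.31 and Hk2 20.4 ± 6.90.

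**Figure D3:**
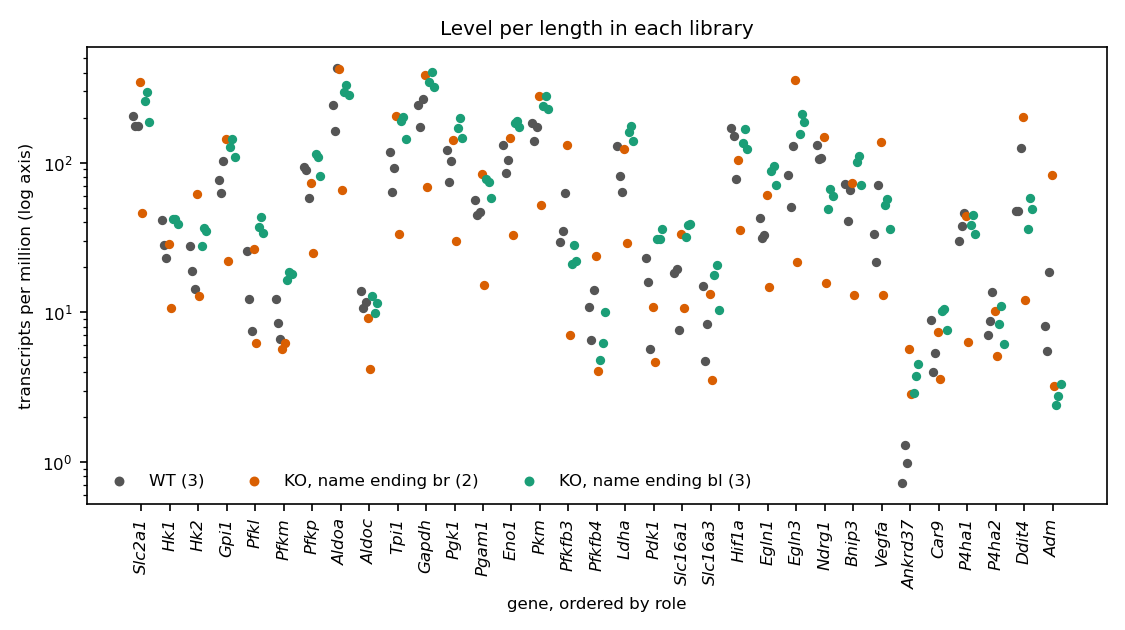
TPM (level per length, vertical log axis) of each gene (horizontal axis, ordered by role), with 1 point per library: grey for 3 WT, orange for 2 KO libraries ending in br and green for 3 KO libraries ending in bl. WT means run from 0.996 for Ankrd37 to 279 for Aldoa.

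Pfkfb3 and Pfkfb4 make and degrade fructose 2,6-bisphosphate, the activator of phosphofructokinase, and both are induced by low oxygen. Pfkfb3 (chromosome 2, 11471433 to 11554077) was 78.1, 105 and 195 CPM in WT, 514 in the library labelled KO 1, and 43.0, 55.8, 67.8 and 58.4 in KO 2 to KO 5. The library labelled KO 1 was 8.48 times the mean of the 3 bl libraries, and the other 4 KO libraries all lay below WT. With that library the log2 fold change was 0.23 (SE 0.83, edgeR adjusted p = 0.967), and without it -1.16. Pfkfb4 was also highest there, at 18.6, 12.7 and 28.5 CPM in WT, 60.4 in the library labelled KO 1, and 16.0, 8.24, 9.63 and 17.1 in KO 2 to KO 5. Its log2 fold change was 0.17 (SE 0.62, adjusted p = 0.968 by edgeR), and -0.64 without that library.

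At the end of the pathway, Slc16a1 had the smallest p of the 33 genes. Slc16a1 (chromosome 3, 104638668 to 104658462), which encodes monocarboxylate transporter 1 and moves lactate and pyruvate in either direction, was 28.3, 34.4 and 13.96 CPM in WT, 76.2 in the library labelled KO 1, and 37.7, 49.7, 53.6 and 59.9 in KO 2 to KO 5. Every KO library lay above every WT library, KO 2 by the least. At the rate seen over the 8135 genes without reads in 5 libraries, the length of Slc16a1 would collect 26.0 of its 227 counts in KO 2. In WT 2 and WT 3 it would collect 4.58 of 522 and 9.74 of 180. The part of such reads in the lack of overlap was not tested. The means were 25.6 ± 10.5 CPM for WT (SD, n = 3) and 55.4 ± 14.1 for KO (n = 5). The log2 fold change was 1.12 (SE 0.33, 95% limits 0.39 and 1.85, edgeR unadjusted p = 0.00661, adjusted p = 0.563). It was 0.98 without the library labelled KO 1 and 1.13 among libraries ending in br. Slc16a3, the exporter linked to high glycolysis, was 27.9, 10.0 and 18.3 CPM among the WT libraries and 36.4, 15.1, 33.4, 35.0 and 19.3 among the KO libraries, and the groups overlapped (log2 fold change 0.58, SE 0.39, adjusted p = 0.884 by edgeR, and 0.08 without WT 2).

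Ldha, which turns pyruvate into lactate, was 151, 108 and 87.6 CPM in WT, 211 in the library labelled KO 1, and 77.1, 187, 186 and 162 in KO 2 to KO 5. All KO libraries but KO 2 lay above WT, with a log2 difference of 0.52 (SE 0.33, adjusted p = 0.880 by edgeR). Pdk1, the kinase that shuts pyruvate dehydrogenase and so keeps pyruvate out of mitochondria, was 62.7, 49.1 and 18.2 CPM in WT, 43.9 in the library labelled KO 1, and 29.2, 84.8, 76.5 and 97.2 in KO 2 to KO 5. Here the KO group split by name ending: the 3 bl libraries lay above WT and both br libraries inside the WT range. For Pdk1 the log2 fold change was 0.62 (SE 0.47, edgeR adjusted p = 0.902) over all libraries and -0.29 among libraries ending in br.

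Hif1a, the oxygen-regulated subunit itself, which is controlled mainly at the protein level, was 356, 353 and 190.2 CPM among the WT libraries and 321, 168, 282, 312 and 254 among the KO libraries. Its log2 fold change was -0.16 (SE 0.29, edgeR adjusted p = 0.941), with WT 3 and KO 2 the lowest libraries. Egln1 (chromosome 8, 124908587 to 124949324), the prolyl hydroxylase that sets Hif1a turnover in normal oxygen, was 54.2, 44.7 and 48.3 CPM in WT, 114 in the library labelled KO 1, and 42.4, 111, 108 and 89.3 in KO 2 to KO 5. KO 2 was just below WT and the other 4 KO libraries were all above it. The means were 49.1 ± 4.81 CPM for WT (SD, n = 3) and 92.9 ± 29.9 for KO (n = 5). This gave Egln1 a log2 fold change of 0.92 (SE 0.31, 95% limits 0.23 and 1.62, edgeR unadjusted p = 0.0144, adjusted p = 0.645).

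Egln3 (chromosome 12, 54178981 to 54203860), a prolyl hydroxylase that is itself a strong Hif1a target, was 77.8, 53.5 and 142 CPM in WT, 492 in the library labelled KO 1, and 46.5, 145, 179 and 174 in KO 2 to KO 5. KO 3 exceeded WT 3 by only a few CPM and KO 2 was below all WT libraries. The log2 fold change was 1.18 (SE 0.64, 95% limits -0.24 and 2.61, edgeR adjusted p = 0.836). It was 0.57 without the library labelled KO 1 and 0.65 without WT 2.

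The 9 hypoxia targets had values of both signs, 6 positive and 3 negative, with a median log2 fold change of 0.33. Ankrd37 (chromosome 8, 45996902 to 46005707), a small ankyrin repeat protein gene and a direct Hif1a target, was rare, with 7, 12 and 8 counts in WT and 62, 21, 25, 32 and 35 in KO. These were 0.391, 0.791 and 0.621 CPM in WT, 4.56 in the library labelled KO 1, and 3.49, 1.56, 1.82 and 2.43 in KO 2 to KO 5, so the groups did not overlap. The log2 fold change of 2.20 (SE 0.67, 95% limits 0.70 and 3.70, edgeR unadjusted p = 0.00863, adjusted p = 0.580) was the largest of the 33. In KO 2, 9.06 of its 21 counts is what its length would collect at the rate seen over 8135 genes without reads in 5 libraries, and the part of such reads in the difference was not tested. Without the library labelled KO 1 its log2 fold change was 1.95. The gene overlaps Ufsp2 on the opposite strand, which had 97 to 461 counts, so some of these few counts could belong to Ufsp2 if strand was not used.

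Ndrg1 (chromosome 15, 66929321 to 66969640), a stress and differentiation gene induced by hypoxia and highly expressed in skin, ran the other way. Its levels were 306, 279.5 and 294 CPM in WT, 509 in the library labelled KO 1, and 83.4, 114, 139 and 138 in KO 2 to KO 5. The WT libraries were close together, 4 KO libraries lay far below them, and the library labelled KO 1 was above them. The log2 fold change was -0.57 (SE 0.53, 95% limits -1.75 and 0.61, edgeR adjusted p = 0.927), -1.30 without the library labelled KO 1 and 0.04 among libraries ending in br.

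Adm (chromosome 7, 110627661 to 110629820), which encodes the vasodilator peptide adrenomedullin, showed the widest spread. It was 4.64, 3.56 and 12.3 CPM in WT, 69.3 in the library labelled KO 1, 4.15 in KO 2, and 1.37, 1.43 and 1.88 in KO 3 to KO 5. The library labelled KO 1 was 44.5 times the mean of the bl libraries, which were all below WT. The log2 fold change was 1.20 (SE 1.34, 95% limits -1.78 and 4.18, edgeR adjusted p = 0.933) with that library and -1.63 without it. Ddit4, an inhibitor of mTORC1, was 28.0, 32.0 and 86.4 CPM in WT, 177 in the library labelled KO 1, and 16.3, 21.4, 31.2 and 28.8 in KO 2 to KO 5. Vegfa, the angiogenic growth factor, was 50.04, 37.1 and 126 CPM in WT, 304 in the library labelled KO 1, and 45.2, 79.1, 78.0 and 53.9 in KO 2 to KO 5. In both, WT 3 and the library labelled KO 1 were the 2 highest libraries, and the log2 fold changes were 0.17 (SE 0.78) for Ddit4 and 0.66 (SE 0.67) for Vegfa (edgeR adjusted p = 0.973 and 0.930). Without the library labelled KO 1 they were -0.99 and -0.15, and without WT 3 0.87 and 1.36.

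Bnip3, a mitophagy receptor, was 36.7 to 61.7 CPM in WT and 23.6 to 86.2 in KO, and Car9, the carbonic anhydrase often used as a hypoxia marker, 3.69 to 7.16 and 6.12 to 8.83. P4ha1 and P4ha2, subunits of the collagen prolyl hydroxylase, were 43.7 to 78.4 and 15.5 to 35.4 CPM in WT, and 20.8 to 94.4 and 13.3 to 32.9 in KO. The log2 fold changes of these 4 genes were 0.33, 0.51, -0.14 and -0.10, with edgeR adjusted p of 0.864 to 0.966, and the groups overlapped in each.

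**Figure D4:**
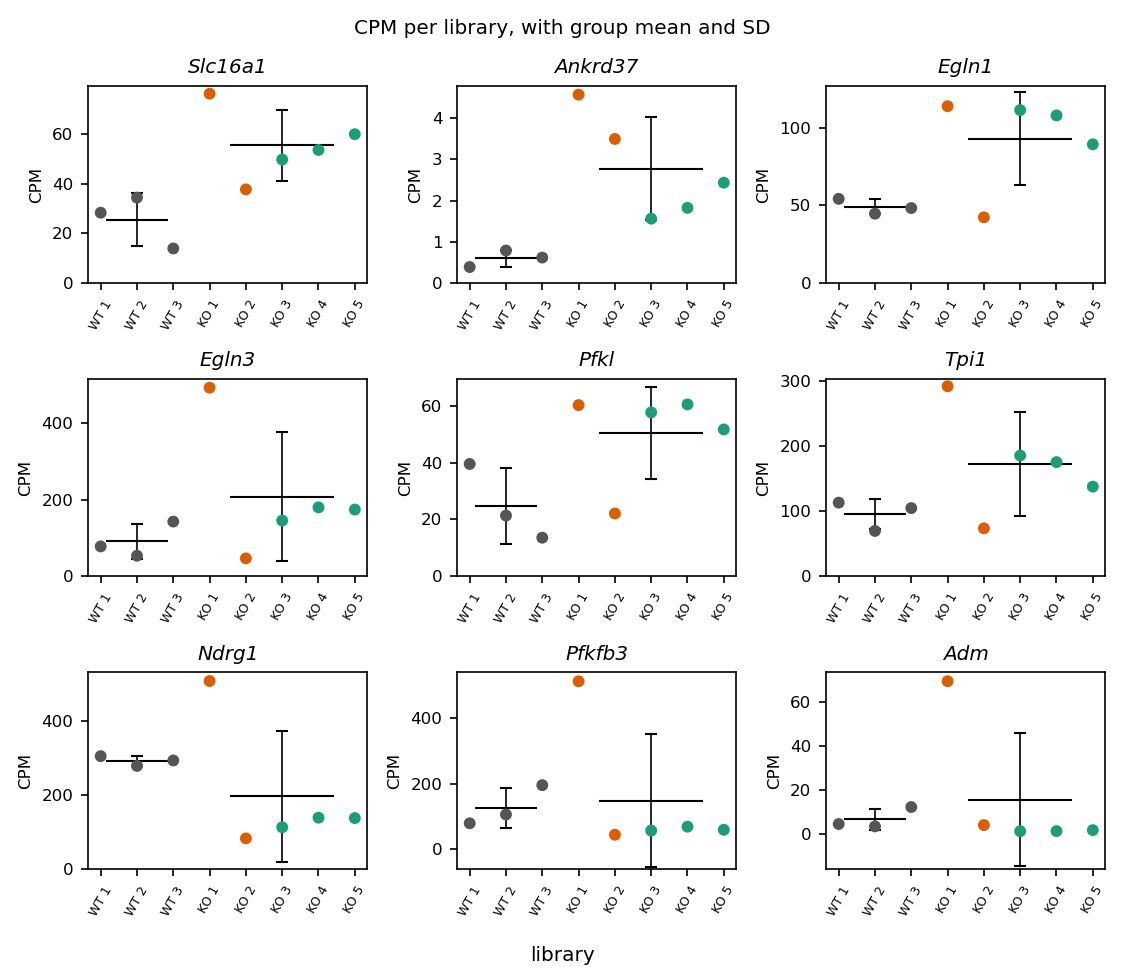
CPM (vertical axes) of 9 members in each library (horizontal axes), grey for WT, orange for KO libraries ending in br and green for KO libraries ending in bl. Horizontal lines are group means and bars are ±1 SD (n = 3 and 5). Slc16a1 and Ankrd37 do not overlap between groups, and in Ndrg1, Pfkfb3 and Adm the library labelled KO 1 is above WT while the 3 bl libraries are below it.

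WT 3 and the library labelled KO 1 were the 2 highest libraries in 8 members: Aldoa, Pfkfb3, Pfkfb4, Vegfa, P4ha1, P4ha2, Ddit4 and Adm. With TMM factors, 11.4% of all genes had this pair on top. The count of members was 7 with library totals alone, where the share of all genes was not computed. Both libraries also had the highest Malat1 share and the highest summed level of 7 genes of wounded or stressed keratinocytes, at 2686 CPM in WT 3 and 4846 in the library labelled KO 1, against 408 to 942 in the other 6. Differentiated keratinocyte markers summed to 4089 and 7545 CPM in these libraries, 3964 in KO 5 and 693 to 2312 in the other 5. Not all genes of both lists followed these sums in WT 3. Krt6a, Krt16, Krt17, Sprr1b, Lor and Sbsn were there below only the library labelled KO 1. Krt6b, S100a8 and S100a9 (11.3, 0.543 and 0.388 CPM) were lower than in KO 4 (70.3, 4.27 and 0.969). Flg was lower than in KO 5 and Ivl lower than in WT 1. Krt2 (1.86 CPM) and Krt1 of the keratinocyte list (395 CPM) were lowest of all in WT 3. Of 10 genes induced by tissue dissociation, the heat shock genes Hspa1a and Hspa1b were highest in WT 3 and the library labelled KO 1. Fos, Fosb, Egr1 and Ier2 were each lowest in WT 3. The sum of the 10 was 4439 CPM in WT 3, inside the range of the other libraries, and 11717 in the library labelled KO 1, the highest of all. The part of RNA quality, stressed cells or differentiated cells in these levels was not tested. Because the samples are bulk tissue, fewer cells of a type and less RNA per cell cannot be told apart.

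Markers of other cell types were low beside those of keratinocytes, and 0 of them passed the edgeR threshold. Enough reads to be tested were found for 9 of 12 skeletal muscle markers, 4 of 6 endothelial, 1 of 5 adipocyte, 6 of 7 fibroblast, 6 of 8 leukocyte and 3 of 6 red cell markers, and the fibroblast gene Lum stayed under 1 CPM everywhere. Summed over each list, skeletal muscle markers were 4.70 to 25.0 CPM in WT and 2.998 to 69.3 in KO, endothelial markers 1.23 to 11.2 and 2.37 to 59.5, and adipocyte markers 0.280 to 4.19 and 0.0625 to 25.9, with KO 2 the highest in each. Fibroblast markers were 34.6 to 42.6 CPM in WT and 4.43 to 86.9 in KO, leukocyte markers 342 to 390.2 and 149.9 to 404, and red cell markers 4.81 to 6.93 and 3.31 to 10.5. The sum of 8 markers of cycling cells, of which Mki67 was the largest part, was 132 to 235 CPM in WT and 264 to 641 in KO without overlap. Of these markers 0 passed the edgeR threshold, and Pcna was higher in WT 1 and WT 2 (52.8 and 49.0 CPM) than in any KO library (36.6 to 42.9). Sebocyte markers, of which Scd1 was the largest part, summed to 542 to 738 CPM in WT and 425 to 655 in KO. Genes of the hair matrix and inner root sheath summed to 672 CPM in KO 5 and 27.9 to 80.7 in the other 7 libraries. The part of cycling or hair matrix cells in the values of the members was not tested.

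In the fit that gives each library a weight that is smaller the further it departs from the model (limma voom), 6 members were called, 5 higher and 1 lower in KO, or 15.2% and 3.03% of 33, against 3.39% and 3.07% of all genes. Egln1 rose by 1.04 on the log2 scale (SE 0.19, limma adjusted p = 0.0119), Egln3 by 1.28 (0.0288), Slc16a1 by 0.85 (0.0264), Pfkl by 1.08 (0.0272) and Tpi1 by 0.94 (0.0340), and Ndrg1 fell by 1.12 (0.0191). The weights were 0.284 for the library labelled KO 1, 0.366 for KO 2 and 0.339 for WT 3, against 1.47 to 2.26 for the others. These calls depended on single libraries, as did those over all genes. Leaving each library out of this fit in turn gave 0 members called without WT 2, KO 3 or KO 4. It gave 1 (Pfkl) without WT 1, and 6 to 10 otherwise. Over all genes it gave 2 of 23307 without WT 2, 222 of 19016 without KO 3 and 160 of 18883 without KO 4. Without WT 1 it gave 638 of 23380, and 1290 to 1900 genes otherwise.

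Leaving out WT 3, the library labelled KO 1 and KO 2 together, which was decided after seeing the data, left 2 WT and 3 KO libraries. In edgeR 10 members were then higher and 3 lower in KO, 30.3% and 9.09% of 33, against 5.25% and 5.32% of all genes. Egln3 rose by 1.31 on the log2 scale (adjusted p = 0.00354), Egln1 by 1.02 (0.00404), Tpi1 by 0.83 (0.0446), Slc16a1 by 0.76 (0.0164), Gpi1 by 0.69 (0.00884), Pgk1 by 0.66 (0.0370), Gapdh by 0.62 (0.0182), Eno1 and Pdk1 by 0.59 each (0.0266 and 0.0405) and Pkm by 0.46 (0.0370). Ndrg1 fell by 1.20 (adjusted p = 0.00175), Pfkfb3 by 0.63 (0.0343) and Adm by 1.43 (0.0415). In this subset the KO names end in bl and the WT names in br, so genotype and name ending cannot be told apart. Among libraries ending in br, the KO group consists of KO 2 and of the library labelled KO 1, whose Tgfa level goes against its label. There 0 members were called in edgeR (0% of all genes). Without adjustment 3 were higher (Adm, Ankrd37 and Hk2) and 0 lower, against 1.8% and 0.558% of all genes, and 27 of 33 values were positive, against 62.2% of all genes. In these libraries Slc16a1 was 1.13, Egln1 0.67, Egln3 1.62, Pfkl 0.71 and Tpi1 0.95 higher, and Ndrg1, Pfkfb3 and Adm were at 0.04, 1.20 and 2.503, opposite in sign to the subset above. In these 3 genes the library labelled KO 1 lay above every WT library, and KO 2 below every WT library or, for Adm, inside the WT range.

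**Figure D5:**
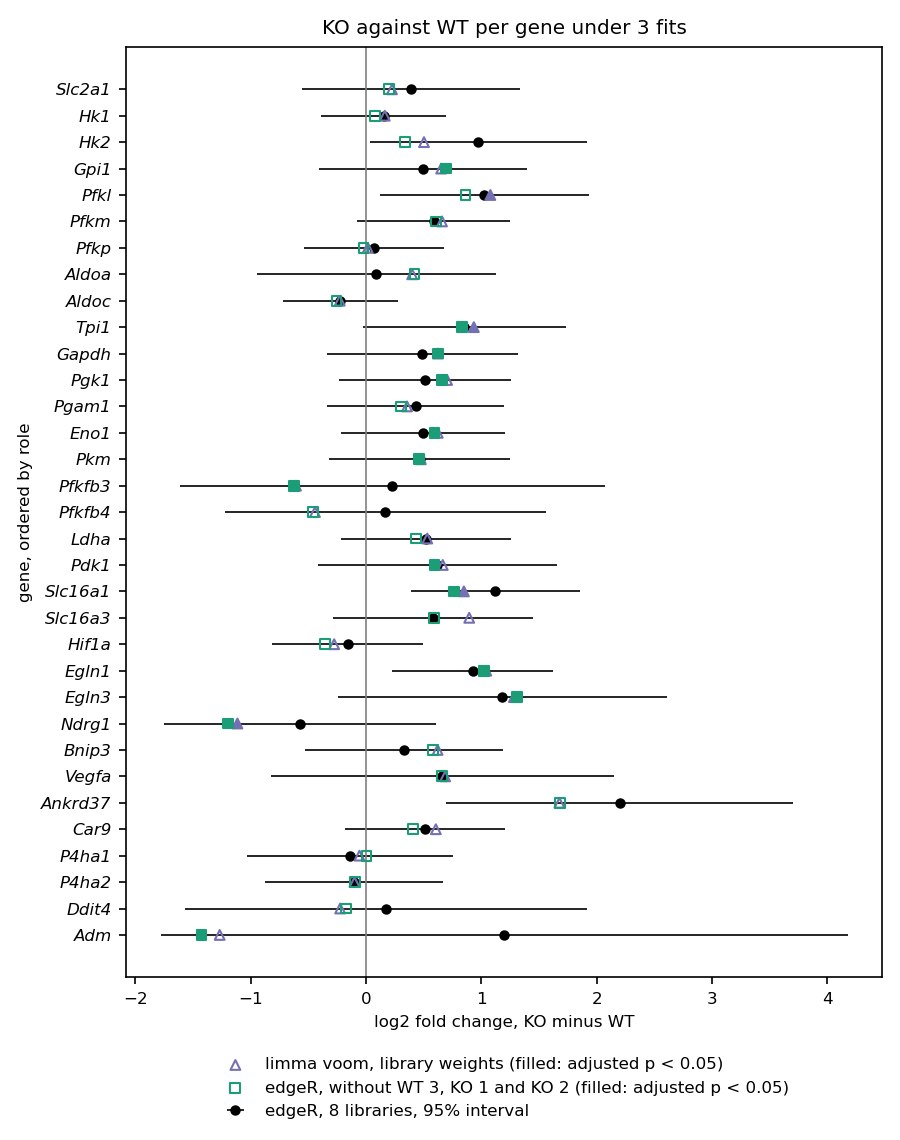
Log2 fold change, KO minus WT (horizontal axis), of the 33 genes (vertical axis) in 3 fits. Black circles with 95% intervals are edgeR on 8 libraries, purple triangles limma voom with library weights, and green squares edgeR without WT 3, the library labelled KO 1 and KO 2, and filled triangles and squares have an adjusted p under 0.05. Pfkfb3, Pfkfb4, Ddit4 and Adm lie right of 0 in the first fit and left of it in the others.

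Within the KO group, the 3 libraries ending in bl were compared with the 2 ending in br, with 0 members called in edgeR and 0% of 19026 genes. Without adjustment 1 member was higher in bl (Pdk1, log2 difference 1.15) and 5 were lower: Adm (-4.61), Pfkfb3 (-2.24), Ddit4 (-1.88), Pfkfb4 (-1.78) and P4ha2 (-0.80), with adjusted p of 0.154 to 0.278. Of all genes 6.58% were higher and 11% lower at that level. Positive values were found for 12 of 33 members and 42.2% of all genes. The median log2 difference was -0.15 for the 33, -0.77 for the 12 hypoxia genes and -0.15 for all genes. With library totals alone these medians were 0.13, -0.45 and 0.06, so the sign for the list as a whole depended on the scaling. The direction also depended on which br library stood for its group. Against KO 2 alone, 22 members were higher in bl and 0 lower, 66.7% and 0% of 33, where 16% of all genes were higher and 31.2% lower. Against the library labelled KO 1 alone, 2 were higher and 17 lower, 6.06% and 51.5%, where 11.2% of all genes were higher and 12.7% lower. In these fits the lone br library is assumed to vary like the bl libraries.

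Other genes of the same pathways were taken from lists chosen with earlier results of these data known, and 0 of them passed edgeR's adjusted threshold over all genes. Of 23 further enzymes of glycolysis and gluconeogenesis tested, 18 were positive, with a median log2 fold change of 0.42. The most abundant were Pfkfb2, at 111 ± 22.1 CPM in WT and 78.2 ± 17.8 in KO (SD), and Gpd2, at 67.1 ± 20.5 and 52.1 ± 4.46. Pcx, which carboxylates pyruvate, had the smallest p (log2 fold change 1.26, SE 0.35, edgeR unadjusted p = 0.00463, adjusted p = 0.553). With library weights 2 rose (Pcx, by 1.31, and Ldhb, by 0.84, limma adjusted p = 0.0190 and 0.0470), or 8.70% of the list, against 3.39% of all genes.

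Of 14 other glucose and lactate carriers tested, 7 were positive and 7 negative (median 0.00). Emb, a partner that brings lactate transporters to the membrane, was 84.6, 92.4 and 53.3 CPM among the WT libraries and 49.0, 38.4, 36.9, 37.7 and 53.7 among the KO libraries. The groups touched only at WT 3 and KO 5, and the log2 fold change was -0.82 (SE 0.24, edgeR unadjusted p = 0.00632, adjusted p = 0.563). Its relative Bsg, the usual partner of Slc16a1, was 91.8 ± 13.5 CPM in WT and 89.0 ± 39.5 in KO, and Slc2a12 62.8 ± 17.4 and 64.3 ± 32.9. With library weights Emb fell by 1.05 (limma adjusted p = 0.00923), while Slc5a1, a sodium-linked glucose carrier, rose by 1.15 and Slc16a6 by 0.96 (0.0406 and 0.0399). That is 14.3% of the list higher and 7.14% lower, against 3.39% and 3.07% of all genes.

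Of 44 further hypoxia targets tested, 30 were positive, with a median of 0.25. Car12, a membrane carbonic anhydrase, stood out by its size, at 64.0, 38.6 and 27.1 CPM in WT, 143 in the library labelled KO 1, and 79.3, 257, 342 and 261 in KO 2 to KO 5. Every KO library lay above every WT library, with a log2 fold change of 2.33 (SE 0.50, edgeR unadjusted p = 0.000927, adjusted p = 0.407). With library weights it rose by 2.52 (limma adjusted p = 0.00251), as did Gys1, Fam162a and Vldlr (1.22, 1.005 and 0.99), and Maff fell by 1.16, or 9.09% of the list higher and 2.27% lower, against 3.39% and 3.07% of all genes. The most abundant of the list, Rora and Bhlhe40, had log2 fold changes of -0.32 and 0.37. The 18 regulators of the HIF pathway split into 9 positive and 9 negative (median 0.00), with Rack1 and Crebbp at -0.05 and -0.01, and Siah2, a ubiquitin ligase acting on the prolyl hydroxylases, at -0.44 (-0.67 with library weights, limma adjusted p = 0.0484, 5.56% of the list).

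The median log2 fold change was 0.06 for 11 genes of pyruvate dehydrogenase and its control, 0.15 for 10 of the pentose phosphate pathway, 0.15 for 15 of Myc and mTORC1 input and 0.19 for 25 nuclear genes of oxidative phosphorylation, of which 23 were positive. For the 2 most abundant genes of each list these values were -0.03 for Pdha1 and 0.06 for Pdpr, 0.40 for Tkt and 0.05 for G6pdx, -0.62 for Mxd1 and 0.17 for Rptor, and 0.17 for Atp5b and 0.19 for Atp5a1. The smallest unadjusted p in the pyruvate dehydrogenase list was that of Pdhx (log2 fold change 0.59, edgeR unadjusted p = 0.184), in the pentose phosphate list that of Tkt (0.188) and among oxidative phosphorylation genes that of Sdhd (log2 fold change 0.42, edgeR unadjusted p = 0.0668). The smallest in the Myc and mTORC1 list was that of Akt1s1 (0.51, edgeR unadjusted p = 0.0335, adjusted p = 0.716). No gene of these 4 lists was called with library weights.

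Several glycolysis genes have processed copies in the genome, which limits their counts. Copies were taken as other transcripts matching a member at 95% identity or more over 300 bases or more. Gapdh has 76 such copies in the files, which held 0.984% to 3.18% of the combined reads in 7 libraries and 26.1% in KO 2. Eno1 has 3, chiefly the retrogene Eno1b, with 0.226% in WT 1 and 5.25% to 7.24% in the others. For the other members copies held at most 7.19%, in Bnip3 of KO 2. Pkm overlaps Gm49759 on its own strand, and Pfkm, Pfkp, Hif1a, Gpi1 and Tpi1 overlap well-counted genes on the opposite strand. Whether the counting used strand is not stated, so reads in these overlaps could not be assigned.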

How the data were processed

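The authors deposited 1 file per library of whole-number read counts per mouse Ensembl gene without normalization, with gene coordinates and length, per the file headers. Reads went through Trimmomatic (0.36), alignment with STAR (version 2.5.2b) and featureCounts (Subread 1.5.2), per the submitters' processing notes, which name the builds GRCh38 and GRCm38. Coordinates are on GRCm38. How reads mapping to several places were handled is not stated.

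Tests used edgeR 4.0.16 (R 4.3.3) on the counts as deposited (TMM, filterByExpr, robust quasi-likelihood test, genotype as the 1 factor), Benjamini-Hochberg adjusted over 19239 genes. Log2 fold changes are KO minus WT. The biological coefficient of variation was 63.7%. Alternatives were DESeq2 1.42.0, limma 3.58.1 (voom, with and without library weights), other normalizations, no filter on low counts, the name ending as a covariate, br libraries alone, and each library left out. Fits were tested on simulated data. Groups come from the genotype labels, and replicate numbers follow the order of deposition and pair no libraries. TPM values were computed from counts and the deposited lengths.

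The members and lists were chosen with earlier results of these data known. Members are given by library if their unadjusted p was under 0.05, their groups did not overlap, they passed in an alternative fit or were the most abundant of their role, and most others are added here. Of each list the 2 most abundant genes and the smallest p are named, and genes passing with library weights. Intervals cover the spread between libraries, and no interval is given for single counts.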

Additional observations from a re-analysis of the deposited data

Results flagged for a closer look

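In 9 members, 1 KO library lay far from the other 4. The gap from that library to its nearest neighbour is given as a fraction of the group's whole range of CPM. Chance alone flags about 1 in 20 independent groups of this size, but the members share the same libraries. The share of all genes flagged this way was not computed. Over all genes, the library labelled KO 1 was the highest of 8 in 17.2% and KO 2 the lowest in 24.4%. The library labelled KO 1 was far above the others for Adm (0.959), Pfkfb3 (0.948), Ddit4 (0.907), Hk2 (0.886), Ndrg1 (0.869), Vegfa (0.869) and Pfkfb4 (0.83). KO 2 was far below them for Pfkl (0.771) and Hk1 (0.754). WT, with 3 libraries, was not examined this way. The library labelled KO 1 is the one whose Tgfa level (103 CPM of its total) goes against its label, and KO 2 the one with the fewest counts (5313552). The part of either in these gaps was not tested.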

How the results depend on the processing

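Of 294 comparisons of a member with its main value under other settings, 252 kept direction and side of the threshold. Of the rest, 25 reversed and 17 became calls without reversing. Pfkfb3 and Adm, called without WT 3, the library labelled KO 1 and KO 2, also reversed and are counted as reversed only. Of 264 comparisons with 1 library left out 243 kept both and 21 reversed. The sign was the same in every setting run for 19 members. Genes called between KO and WT (1 as reported) were 0 with upper quartile scaling, 9 without the filter, 137 with DESeq2, 0 with limma voom, 1243 with library weights, 0 in br libraries alone and 1883 without WT 3, the library labelled KO 1 and KO 2. Members called (0) were 6 with weights and 13 without those 3 libraries. Between KO libraries by ending, 0 genes and 0 members became 2383 and 6 without the filter and 1888 and 3 with DESeq2. Without the filter and in DESeq2, genes with reads in KO 2 and almost none elsewhere enter the test. With 1 library left out these counts were 0 to 1 genes between KO and WT, and 0 to 12160 genes and 0 to 22 members by ending, and for the fit with library weights 2 to 1900 genes and 0 to 10 members. Reversed values were Hk1 -0.0316 and Pfkp -0.11 in br libraries alone, Pfkp -0.0733 with the ending as covariate and -0.0229 without the 3 libraries, Pdk1 -0.22 and -0.29, Ndrg1 0.0219 and 0.0385, and P4ha2 0.30 and 0.27 with the covariate and in br alone, Aldoa -0.0565 and Ddit4 -0.00636 with upper quartile scaling, and P4ha1 0.00356 without the 3 libraries. In voom, with weights and without the 3 libraries, Pfkfb3 was -0.43, -0.61 and -0.63, Pfkfb4 -0.18, -0.44 and -0.46, Ddit4 -0.22, -0.22 and -0.18, and Adm -0.61, -1.27 and -1.43. With 1 library left out the values ran from -0.0782 to 0.37 for Hk1, -0.0867 to 0.17 for Pfkp, -0.47 to 0.63 for Aldoa, -1.16 to 0.69 for Pfkfb3, -0.64 to 0.51 for Pfkfb4, -0.41 to 0.00574 for Hif1a, -0.11 to 0.51 for Bnip3, -0.15 to 1.36 for Vegfa, -0.42 to 0.0754 for P4ha1, -0.48 to 0.26 for P4ha2, -0.99 to 0.87 for Ddit4 and -1.63 to 1.93 for Adm, the glycolysis median from 0.14 to 0.63 and the hypoxia median from -0.19 to 0.67. By ending they were -3.10 to 0.49 for Pfkfb3 and -2.73 to 0.73 for Ddit4. The cause of each was not tested. DESeq2 gave no adjusted p for Pfkfb3, Ddit4 and Adm. No paired analysis was possible because the labels carry no replicate numbers.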
